A study of Mus musculus with 4 samples.

Results

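The splicing factor genes described here are the genes of the small nuclear ribonucleoproteins (Snrp), of the SF3a and SF3b complexes (Sf3), of the serine- and arginine-rich proteins (Srsf) and of the heterogeneous nuclear ribonucleoproteins (Hnrnp). They were chosen by gene symbol alone, without Snrpn, which gave 52 of the 24026 genes of the table: 11 Snrp, 9 Sf3, 11 Srsf and 21 Hnrnp genes, 1 of which, Hnrnpa1l2-ps2, is a pseudogene. Their RNA was measured in untreated F123-ESCs, a male hybrid embryonic stem cell line of genotype S129/CAST, from a cross of these mouse strains. Copy numbers of the chromosomes were not measured in these libraries. The cells were grown on feeder fibroblasts, passaged without feeders and harvested after about 48 h, and 4 libraries of polyA RNA, replicates 1 to 4, were sequenced as paired reads of 150 bp. All 4 libraries come from 1 cell line under 1 condition, so that the comparison the design allows is between the S129 and the CAST copy of each gene within a library. The study describes the S129 chromosomes as maternal and the CAST chromosomes as paternal. Strain and parent of origin can therefore not be told apart in any allele difference below. The sources do not say whether the libraries came from separate cultures, and p-values therefore measure the spread between these libraries, which may be technical.

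Introns are removed from pre-mRNA by the spliceosome, which is assembled on each intron from small nuclear ribonucleoproteins, particles of a small RNA and proteins. The Sm proteins form a ring around the RNA of most of these particles, while SF3a and SF3b are parts of the U2 particle, which recognises the branch point of the intron. SR proteins bind exons and mostly promote the use of nearby splice sites, and hnRNP proteins bind the nascent RNA and often oppose it. Many genes of the SR and hnRNP families adjust their own level by splicing in exons that send the transcript to decay.

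Values are RPKM, the reads on a gene divided by its length and by the assigned reads of the column, and only reads that cover a position differing between S129 and CAST enter them. A gene whose transcript has few such positions has a low RPKM whatever its RNA level, so that the RPKM of a member measures its RNA and its number of such positions together, and these positions were not counted here. The level of a gene is given as the mean of the RPKM of both alleles in a library, with the SD over the 4 libraries. The totals of assigned reads per library, recovered from the steps between the deposited values, were 34120416 to 56627972, and replicate 4 was the shallowest. The members took at least 0.674% to 0.753% of these reads. All 10 markers of embryonic stem cells examined were at 29.5 RPKM or above, with Dppa5a highest at 7111 RPKM. Of 10 fibroblast markers, 7 reached 1 RPKM, led by Col1a2 with 166 RPKM, while Lum was at 0.0462 RPKM, and their summed level was 184 to 231 RPKM against 8444 to 10000 RPKM for the stem cell markers. The part of remaining feeder cells in the levels below was not tested.

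The sequence in front of 4 members is shown because these genes are among those with the largest difference between the alleles, on both sides, and because it shows how members differ in their promoters. The 250 bases before the RefSeq start (GRCm38.p6, 5′ to 3′ on the strand of the gene) are those of the reference strain and not of S129 or CAST. Capitals mark matches on either strand to 5 short sequences. These are CCGGAAG, which ETS factors bind, the GC box with the letters GGGCGG, the CCAAT box, the TATA box, searched here as the letters TATAAA, and the palindrome TGACGTCA of CREB and ATF factors. The windows are chr17:29032410-29032659 (+) for Srsf3, chr17:80207306-80207555 (-) for Srsf7, chr5:99978939-99979188 (-) for Hnrnpd and chr12:4817358-4817607 (+) for Sf3b6.
Srsf3: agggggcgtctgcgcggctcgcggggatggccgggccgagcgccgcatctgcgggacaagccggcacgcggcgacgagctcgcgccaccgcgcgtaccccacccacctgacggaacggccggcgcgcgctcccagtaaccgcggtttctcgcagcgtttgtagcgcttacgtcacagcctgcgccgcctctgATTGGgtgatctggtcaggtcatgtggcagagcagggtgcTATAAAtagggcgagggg
Srsf7: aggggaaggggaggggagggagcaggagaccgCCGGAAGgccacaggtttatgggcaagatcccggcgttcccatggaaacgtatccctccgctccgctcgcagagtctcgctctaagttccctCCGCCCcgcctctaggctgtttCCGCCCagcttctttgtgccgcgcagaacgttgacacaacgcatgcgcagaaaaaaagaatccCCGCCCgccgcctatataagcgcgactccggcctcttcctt
Hnrnpd: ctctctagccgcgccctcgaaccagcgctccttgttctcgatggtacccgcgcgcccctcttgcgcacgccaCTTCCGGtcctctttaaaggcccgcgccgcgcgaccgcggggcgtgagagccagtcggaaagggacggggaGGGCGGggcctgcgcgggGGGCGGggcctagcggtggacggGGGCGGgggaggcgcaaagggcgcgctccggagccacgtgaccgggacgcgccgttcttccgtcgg
Sf3b6: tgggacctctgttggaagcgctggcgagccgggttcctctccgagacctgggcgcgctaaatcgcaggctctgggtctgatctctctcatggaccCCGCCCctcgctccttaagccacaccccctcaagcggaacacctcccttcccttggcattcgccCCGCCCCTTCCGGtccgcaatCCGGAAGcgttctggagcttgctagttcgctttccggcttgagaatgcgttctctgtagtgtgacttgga

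Srsf3 had TATAAA and CCAAT in this window and no GGGCGG, whereas Srsf7 and Hnrnpd each had 3 GGGCGG and 1 CCGGAAG. Sf3b6 had 2 GGGCGG and 2 CCGGAAG. Other spellings of the TATA box were not searched, and the Srsf7 window holds the letters tatataag near its end. RefSeq promoters were found for 46 of the 52 members, 60 windows in all. CCGGAAG was in 31.7% of the member windows, in 6.91% of all 32851 windows and in 13.0% of the 13135 windows of genes that entered the comparison of the alleles. It was found in front of 15 member genes, among them all 3 SF3a genes (Sf3a1, Sf3a2 and Sf3a3) and 3 SF3b genes (Sf3b2, Sf3b3 and Sf3b6). GGGCGG was in 70.0% of the member windows and in 56.4% of the windows of compared genes, CCAAT in 45.0% and 35.0%, TATAAA in 10.0% and 6.59%, and TGACGTCA in 3.33% and 2.53%. The median number of CG dinucleotides was 19.5 in the member windows and 15 in those of compared genes. These are counts of letters in a window, and no binding was measured in these libraries.

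The splicing factor genes were high among all genes, with a median level over the members of 39.5 ± 2.41 RPKM (SD, n = 4). Of the 52 members, 48 reached 1 RPKM (92.3%), against 49.7% of all genes, and 13 reached 100 RPKM (25%), against 4.20% of all genes. In all, 26 members were among the top 10% of all genes. The median levels of the families were 73.2 RPKM for Snrp, 49.5 RPKM for Sf3, 46.9 RPKM for Srsf and 21.7 RPKM for Hnrnp, and single members differed by far more than the families.

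**Figure D1:**
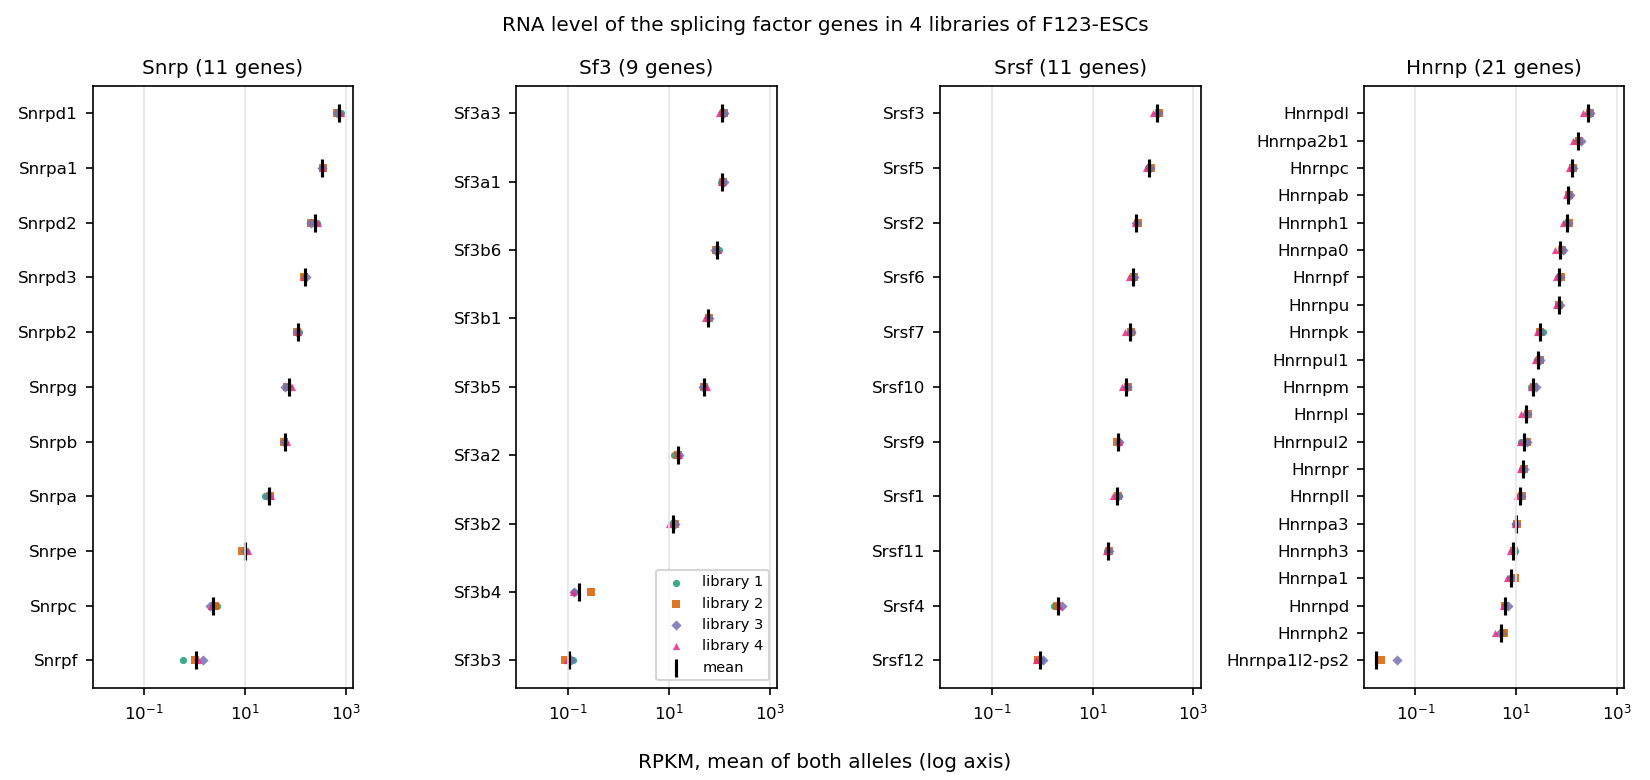
RNA level of the 52 splicing factor genes in F123-ESCs, by family. Each symbol is 1 library on a logarithmic RPKM axis (mean of both alleles) and the bar is the mean of the 4 libraries. Values of 0, as for Hnrnpa1l2-ps2 in libraries 1 and 4, are not drawn. Snrpd1 stands at the top with 733 RPKM, and the 4 libraries of a gene lie close together compared with the distance between genes.

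Among the 7 Sm core proteins, which occupy the same ring, the level ran from 1.06 to 733 RPKM. Snrpd1 was the highest of all members, with 795, 663, 665 and 808 RPKM in libraries 1 to 4 (733 ± 79.6, SD, n = 4). Snrpd2 had 272, 204, 203 and 278 RPKM (239 ± 41.2), and both genes were higher in libraries 1 and 4 than in 2 and 3. Snrpd3 (152 ± 5.77 RPKM), Snrpg (73.2 ± 9.21), Snrpb (61.2 ± 4.13) and Snrpe (10.0 ± 1.15) were in between. Snrpf was lowest, with 0.595, 1.02, 1.45 and 1.16 RPKM (1.06 ± 0.355), resting on 167 reads in all libraries together. With an SD of 0.49 on the log2(RPKM + 0.1) scale it was also the member at 1 RPKM or above that varied most between libraries, followed by Snrpd2 (0.25) and Hnrnph2 (0.24).

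Of the proteins of particular particles, both U2 genes were high. Snrpa1, which codes for the U2 A′ protein, had 335, 358, 334 and 344 RPKM (343 ± 10.9), and Snrpb2, which codes for the U2 B″ protein, had 110 ± 3.59 RPKM. The U1 genes were lower, Snrpa with 29.6 ± 3.15 RPKM and Snrpc with 2.74, 2.51, 2.06 and 2.13 RPKM (2.36 ± 0.323). The SF3a genes Sf3a3 (115, 126, 124 and 99.6 RPKM) and Sf3a1 (108, 122, 122 and 106 RPKM) were near each other, and Sf3a2 was at 14.9 ± 1.55 RPKM. Within SF3b, Sf3b6, whose product contacts the branch point adenosine, had 90.01 ± 8.23 RPKM, Sf3b1, the largest scaffold subunit, had 59.6 ± 6.08 RPKM, Sf3b5 had 50.9 ± 4.11 RPKM and Sf3b2 had 11.9 ± 1.67 RPKM.

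The other 2 SF3b genes were close to 0. Sf3b4 had 0.129, 0.281, 0.132 and 0.125 RPKM (61 reads in all) and Sf3b3 had 0.124, 0.0883, 0.116 and 0.0971 RPKM (92 reads in all). The values count reads over strain differences only, and these positions were not counted. The values are therefore no measure of whether these genes were transcribed. In the fixed list of other spliceosome genes, Lsm2 was likewise listed at 0 in every column.

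Near-identical transcripts elsewhere in the genome were found for high and for low members. By alignment to GENCODE M21 transcripts (at least 95% identity over at least 200 bp), 22 of the 52 members had 1 or more copies, all 22 with at least 1 pseudogene, and 30 had none. Copies were found for 11 of the 26 members with the highest levels and for 11 of the 26 with the lowest. Hnrnpa3 had 36 copies, 35 of them pseudogenes, Hnrnpa1 had 9, Hnrnpf 8, Snrpa 6 and Srsf3 4. Sf3b4, 1 of the SF3b genes close to 0, had 1 copy, the processed pseudogene Gm7935 (99.3% identity over 1278 bp). How the authors' counting treated reads that match several places is not given in the sources used here, and values of these members are uncertain to that extent. A stretch of 60 coding bases of Snrpf is shown beside the processed pseudogene Gm13092, since Snrpf was the lowest of the Sm genes. The transcript sequences are from GENCODE M21 (mm10), and capitals mark the bases at which the gene and its copy differ, 4 in all. The stretches lie at chr10:93588066-93589540 (-, across an intron) for Snrpf and chr4:150315377-150315436 (-) for Gm13092.
Snrpf: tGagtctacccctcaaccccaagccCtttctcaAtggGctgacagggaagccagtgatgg
Gm13092: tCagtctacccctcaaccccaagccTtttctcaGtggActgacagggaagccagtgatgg

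The alignment of Gm13092 to Snrpf covered 258 bp at 98.8% identity. It was made separately from the stretch shown, which was picked for its many differences and starts at the end of the pseudogene. The differences counted in the stretch need therefore not all lie within the alignment. Snrpf also shared 85.4% of its exon bases with genes on the opposite strand (4933408J17Rik and Ccdc38). Of the 52 members, 7 had at least 10% of their exon bases opposite another gene, including Srsf4 (43.0%), Hnrnpab (29.1%), Hnrnpf (26.5%) and Srsf2 (25.3%). The library kit keeps strand, but whether the counting used it is not given in the sources used here.

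Among the SR protein genes Srsf3, the smallest SR protein, was highest, with 205, 208, 202 and 161 RPKM (194 ± 22.4). Srsf5 followed with 126, 146, 141 and 117 RPKM (133 ± 13.5). Srsf2 (74.3 ± 4.32 RPKM), Srsf6 (63.4 ± 6.25), Srsf7 (55.9 ± 7.62), Srsf10 (46.9 ± 5.28), Srsf9 (32.4 ± 1.21), Srsf1 (30.7 ± 3.72) and Srsf11 (20.1 ± 1.32) lay between 20 and 75 RPKM. The lowest were Srsf4, with 1.68, 1.99, 2.44 and 2.15 RPKM, and Srsf12, with 0.929, 0.846, 1.05 and 0.740 RPKM. Srsf3 was thus above every other Srsf gene in each of the 4 libraries.

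The hnRNP genes were led by Hnrnpdl, with 270, 293, 294 and 206 RPKM (266 ± 41.1), and by Hnrnpa2b1, with 160, 178, 189 and 136 RPKM (166 ± 23.1). Hnrnpc, part of the core hnRNP particle on nascent RNA, had 128 ± 13.0 RPKM, and Hnrnpab had 107 ± 7.70 RPKM. Hnrnpa1, whose product is one of the most abundant nuclear proteins in general, was at 7.87 ± 1.19 RPKM, which is the 72.4th percentile of all genes. Hnrnph1 (99.2 ± 12.2 RPKM), Hnrnpa0 (74.6 ± 11.2), Hnrnpf (71.2 ± 6.61) and Hnrnpu (69.2 ± 4.96) were above 50 RPKM. The remaining functional genes were between 4.90 RPKM (Hnrnph2) and 29.6 RPKM (Hnrnpk). The pseudogene Hnrnpa1l2-ps2 was listed at 0 in libraries 1 and 4 and had 0.0211 and 0.044 RPKM in libraries 2 and 3, resting on 3 reads.

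The order of the genes depended on the gene length that the authors divided by. For each member the length behind its RPKM was recovered, and it was shorter than the union of all annotated exons in all but 4 members, by a median factor of 1.84 and at most 8.73. Dividing the same reads by the exon union lowered the median level over the members to 15.8 RPKM and changed ranks. Sf3a1, for which 846 bp had been used against an exon union of 6147 bp, went from 115 RPKM (rank 11 of 52) to 15.8 RPKM (rank 26). Snrpa1 (654 bp against 3172 bp) went from rank 2 to rank 10 and Hnrnpdl (846 bp against 4818 bp) from rank 3 to rank 16, while Snrpd1 stayed at rank 1 with 299 RPKM. Differences in level between genes are therefore given as a description and were not tested. A comparison of alleles uses the same length on both sides and is not touched.

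**Figure D2:**
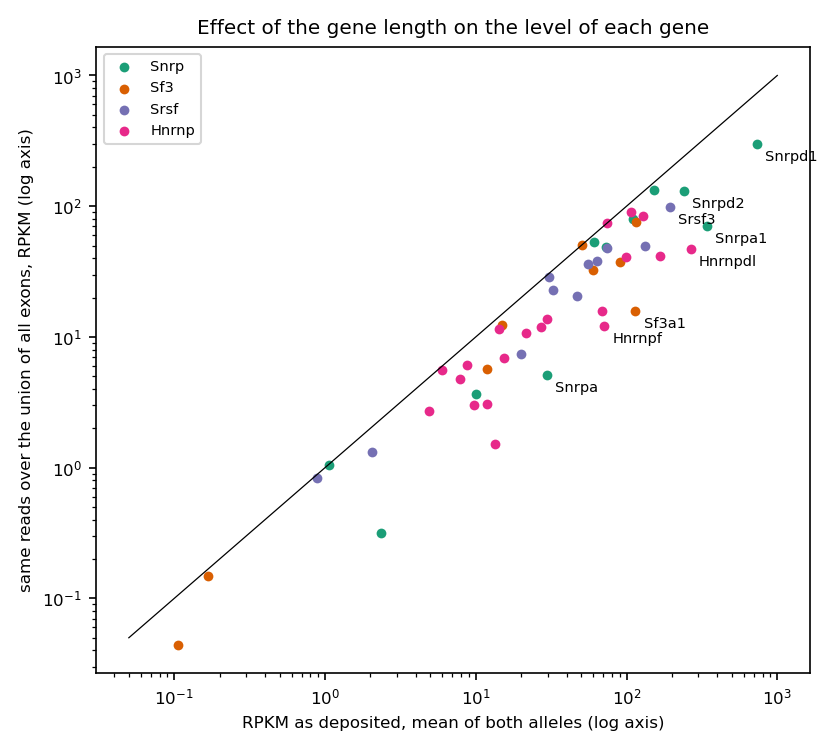
Level of each member as deposited (horizontal) against the level when the same reads are divided by the union of all exons (vertical), both in RPKM on logarithmic axes, coloured by family. The line marks equal values. Hnrnpa1l2-ps2 is left out. Sf3a1 falls from 115 to 15.8 RPKM, whereas Snrpd1 is highest by either length.

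The families did not vary in the same way between libraries. Replicate 4 was the lowest library for 31 of the 48 members at 1 RPKM or above, and for 6581 of 11946 genes at this level. All 20 such Hnrnp genes were lower in replicate 4 than in the mean of the other three libraries, with a median difference of -0.28 on the log2(RPKM + 0.1) scale. Of the Srsf genes 8 of 10 were lower (80%, median -0.27). In contrast, 9 of 11 Snrp genes were higher in replicate 4 (median 0.19), and the Sf3 genes were divided, 4 lower and 3 higher (median -0.14). Over all genes at this level 72.9% were lower in replicate 4 and the median was -0.13, and over the 48 members 70.8% were lower. The Snrp genes are also short, with a median transcript length behind the RPKM of 870 bases against 2588 for Srsf and 2592 for Hnrnp. Over all genes, the 2988 genes with the shortest transcripts had a median difference of 0.015 and the 2986 genes with the longest had -0.16. Across the 48 members, Spearman's rho between transcript length and the difference was -0.43, and across 11943 genes it was -0.26, where the points share libraries and are no independent replicates. Since replicate 4 had the fewest reads and stands alone, the part of transcript length and depth in this pattern was not tested. For 6 of the 52 members the length is the shortest that the steps allow. The median SD of the members between libraries was 0.16 on the log2 scale with all libraries and 0.074 without replicate 4.

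**Figure D3:**
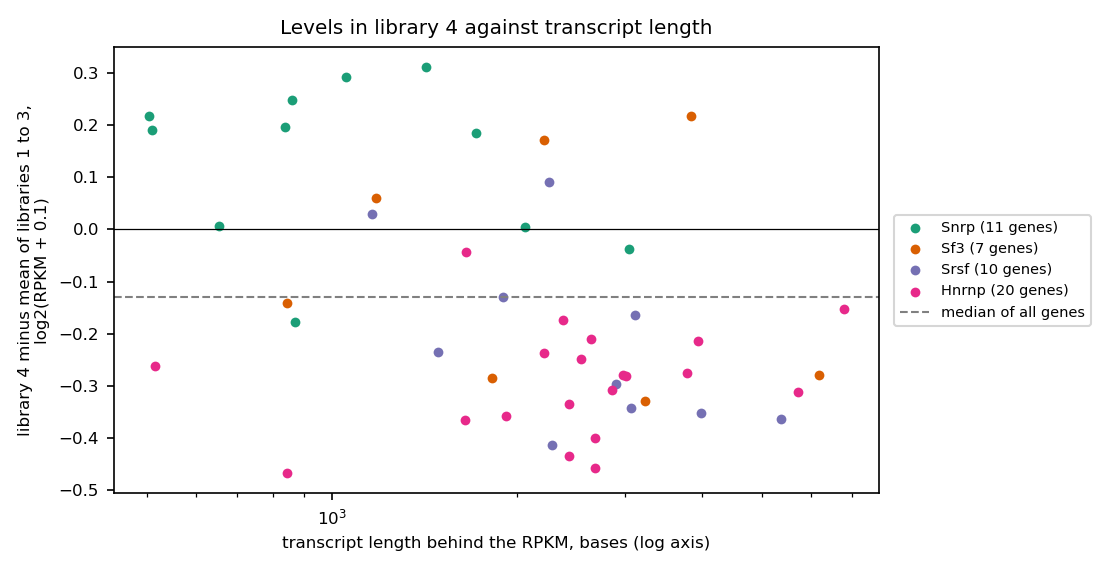
Level in library 4 minus the mean of libraries 1 to 3, in log2(RPKM + 0.1), against the transcript length behind the RPKM in bases on a logarithmic axis, for the 48 members at 1 RPKM or above, coloured by family. The dashed line is the median of all genes (-0.13). All 20 Hnrnp genes lie under 0, and 9 of 11 Snrp genes lie above it.

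Next, the S129 and CAST alleles of each splicing factor gene were compared. In total, 10 members were higher from S129 and 18 were higher from CAST, of 49 whose alleles together reached 1 RPKM, while 21 did not pass the threshold (limma on the differences within each library, adjusted p under 0.05 over 13341 genes). Over all genes tested, 31.4% were higher from S129 and 31.3% higher from CAST, beside 20.4% and 36.7% of the members tested (57.1% in both directions together). In each of the 28 genes the direction was the same in all 4 libraries. The test on differences within libraries selects for this, so it is no separate support. The direction was also the same in all 4 libraries in 9 of the 21 members that did not pass. Sf3b3, Sf3b4 and Hnrnpa1l2-ps2 were under the filter and were not tested. When the alleles were compared without the pairing by library, 13 members were called, 5 higher from S129 and 8 from CAST, against 24.7% and 23.5% of all genes. Leaving out replicate 3 left 6 members higher from S129. Among the 107 other splicing genes described below, it left 22 in place of 31. The share over all genes is not given for this setting.

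The balance between the directions depended on the scaling. When every column was rescaled to the same sum over autosomal genes, the difference of the median gene moved by 0.10 on the log2 scale towards S129, and the members divided into 17 higher from S129 and 10 higher from CAST. The calls over all genes moved in the same direction, with 38.4% higher from S129 and 23.0% higher from CAST under this scaling. The differences of most members were small on this scale. The median absolute difference was 0.18 for the 48 autosomal members tested and 0.29 for all autosomal genes tested, and 14 of the 28 called members differed by under 0.25. With the rescaling 20 of the 28 calls were kept, 8 were lost, none was reversed and 7 others were added. Only 2 of the 49 members tested, the X-linked Hnrnph2 and Srsf12, were called and differed by at least 2-fold, against 1999 of all 13341 genes tested. The 4 S129 values lay above all 4 CAST values in 6 members, against 23.3% of all genes tested, and the reverse held in 9 members, against 22.2% of all genes tested.

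**Figure D4:**
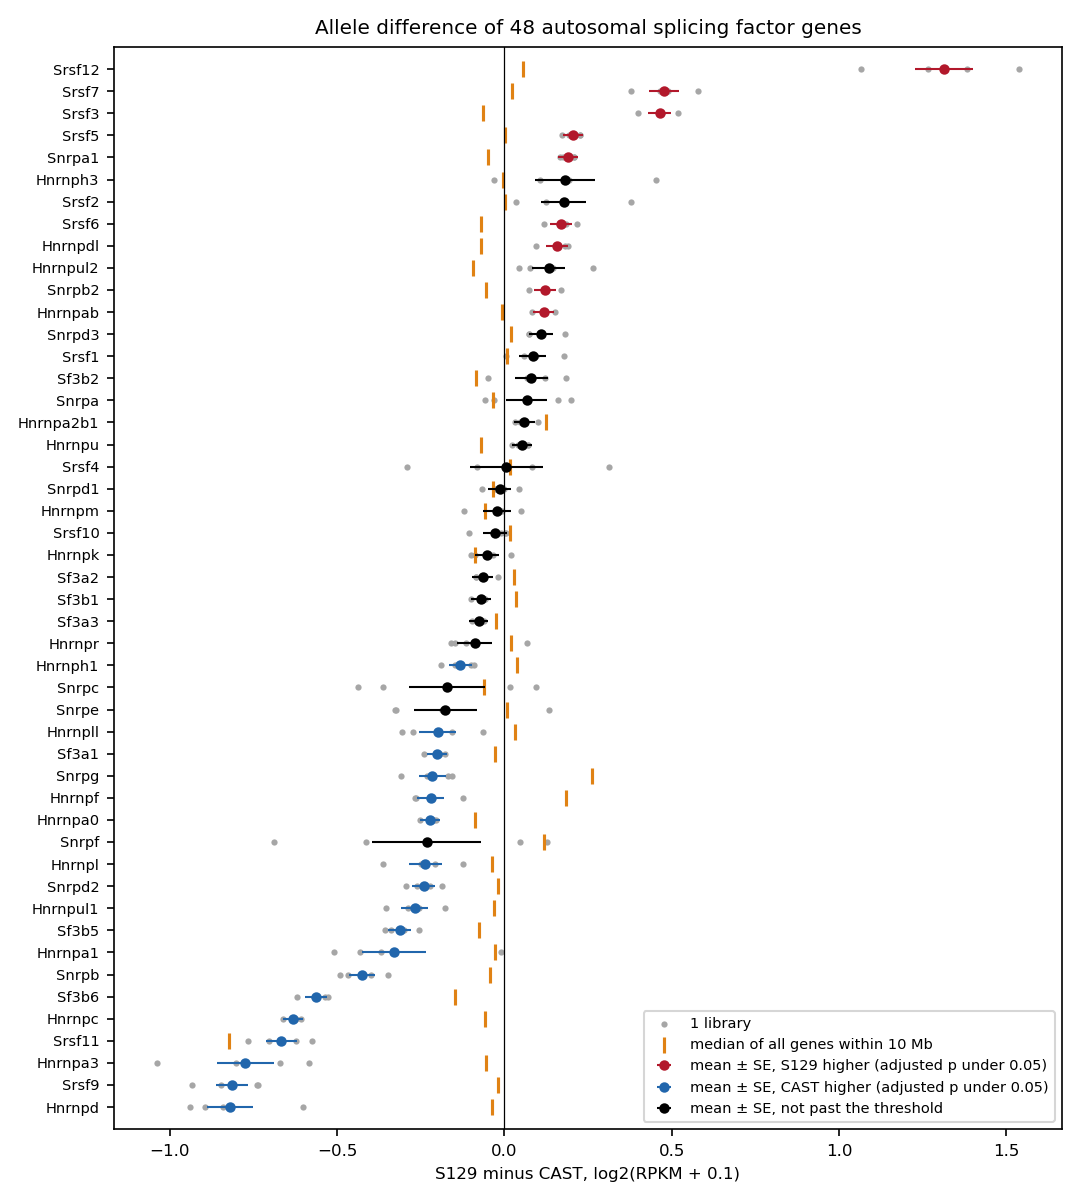
Difference between the alleles, S129 minus CAST in log2(RPKM + 0.1), for the 48 autosomal members tested. Grey points are the 4 libraries, coloured points the mean with its standard error from limma, and orange bars the median of all other genes within 10 Mb. Hnrnph2, on the X chromosome, is left out. Srsf12 stands at 1.31 and Hnrnpd at -0.82, and for Srsf11 the orange bar (-0.82) lies beyond the gene itself.

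Of the SR protein genes, 5 were higher from S129 and 2 from CAST of 11 tested, and with the autosomal rescaling 7 and 2. Srsf7 (chr17:80200080-80207307), an SR protein with a zinc knuckle that also promotes RNA export, had 74.0, 67.5, 68.6 and 50.6 RPKM from S129 and 49.6, 48.1, 49.7 and 38.9 RPKM from CAST. No S129 value overlapped the CAST values, and the difference was 0.48 ± 0.044 (log2, SE, n = 4, adjusted p = 0.00107). Srsf3 (chr17:29032628-29043373), whose window with TATAAA is printed above, had 238, 242, 238 and 183 RPKM from S129. From CAST it had 172, 175, 166 and 139 RPKM, a difference of 0.46 ± 0.035 (limma, adjusted p = 0.00055). S129 reads made up 59.0% of the reads of Srsf3, of which there were at least 149151, and 50.81 to 51.05% of all assigned reads per library. Srsf12 (chr4:33208991-33233340), a divergent member that antagonises SR proteins, had 1.43, 1.18, 1.52 and 1.11 RPKM from S129 against 0.428, 0.511, 0.576 and 0.366 RPKM from CAST. This was the largest difference among autosomal members, 1.31 ± 0.087 (2.48-fold on the log2(RPKM + 0.1) scale, adjusted p = 0.000382), although it rested on only 507 reads, 377 of S129 and 130 of CAST. Srsf5 (0.20 ± 0.030) and Srsf6 (0.17 ± 0.033) were also higher from S129, calls that were both lost without the pairing by library, and that of Srsf6 also without replicate 3.

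Srsf9 and Srsf11 were higher from CAST. Srsf9 (chr5:115327177-115333080) had 23.6, 20.99, 24.8 and 24.6 RPKM from S129 and 42.4, 40.2, 41.5 and 41.2 RPKM from CAST, with a difference of -0.81 ± 0.048 (adjusted p = 0.000276). Srsf11 (chr3:158010473-158036639) had 15.5, 15.6, 16.9 and 14.0 RPKM from S129 and 23.9, 26.7, 25.3 and 22.8 RPKM from CAST, a difference of -0.67 ± 0.045 (adjusted p = 0.000413). Its neighbourhood behaved in the same way, since the median of the 26 other genes within 10 Mb was -0.82. After this local median was taken out, Srsf11 was higher from S129 by 0.16 (limma, adjusted p = 0.0128). After the median of the whole chromosome (-0.72) was taken out, Srsf11 did not pass the threshold (0.052, limma, adjusted p = 0.363).

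Of the hnRNP genes, 3 were higher from S129 and 10 from CAST of 20 tested, and with the autosomal rescaling, which moved all genes towards S129, 6 and 4. The 3 include the X-linked Hnrnph2, for which a male line has no second copy. Hnrnpd, or AUF1, which binds AU-rich elements and promotes mRNA decay, had 3.90, 4.06, 4.91 and 4.36 RPKM from S129 and 7.35, 7.87, 8.87 and 6.67 RPKM from CAST. Its difference of -0.82 ± 0.068 (adjusted p = 0.00077) was the largest in this direction. Hnrnpa3 had 7.61, 7.44, 7.51 and 6.22 RPKM from S129 and 11.5, 13.0, 12.03 and 12.9 RPKM from CAST (-0.77 ± 0.086, adjusted p = 0.00191), and it is the member with the most pseudogene copies. Hnrnpc had 105, 104, 107 and 86.2 RPKM from S129 and 163, 164, 165 and 131 RPKM from CAST (-0.63 ± 0.030, adjusted p = 0.000141). In Hnrnpc both alleles were lowest in replicate 4, and the S129 share of the reads over the libraries was 40.1%. Hnrnpa1 (-0.33 ± 0.095, adjusted p = 0.0373) and Hnrnpll (-0.20 ± 0.054, adjusted p = 0.0308) passed only narrowly. Hnrnpa1 had 6.32, 8.06, 6.86 and 6.44 RPKM from S129 and 8.57, 10.4, 9.80 and 6.49 RPKM from CAST, so that its alleles overlapped and were almost equal in replicate 4. With the local median taken out its call was lost (adjusted p = 0.0637), and with the chromosome median taken out the calls of Hnrnpa1 (adjusted p = 0.0562) and Hnrnpll (adjusted p = 0.0585) were lost.

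Of 4 pairs of neighbouring members, those of Hnrnpd with Hnrnpdl and of Hnrnpll with Srsf7 were on opposite sides. Hnrnpa0 and Hnrnpk (-0.22 and -0.051) and Srsf10 and Hnrnpr (-0.027 and -0.090) were on the same side. Hnrnpd (chr5:99955935-99978938) and its close relative Hnrnpdl (chr5:100033577-100039664) are 54.6 kb apart on the same strand. Hnrnpdl had 285, 311, 313 and 213 RPKM from S129 and 255, 275, 274 and 200 RPKM from CAST and was higher from S129 by 0.16 ± 0.033 (adjusted p = 0.0151), whereas Hnrnpd was higher from CAST. The call of Hnrnpdl was lost without replicate 1 (0.16, adjusted p = 0.0583), replicate 2 (0.15, adjusted p = 0.0682) or replicate 3 (0.15, adjusted p = 0.068), and without the pairing by library (adjusted p = 0.436). The difference of Hnrnpdl minus that of Hnrnpd was 0.98 ± 0.19 (SD, n = 4) and 0.70 to 1.12 in single libraries. Hnrnpll (chr17:80029487-80062334), with 11.1, 11.7, 12.4 and 9.11 RPKM from S129 and 12.4, 14.2, 12.9 and 11.3 RPKM from CAST, lies 138 kb from Srsf7 on the same strand. The difference of Srsf7 minus that of Hnrnpll was 0.68 ± 0.10 (SD, n = 4), between 0.53 and 0.76 in single libraries. These pairs were picked after their values were seen, and their differences are given with no test.

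Of the Sf3 genes, 0 were higher from S129 and 3 from CAST of 7 tested, and with the autosomal rescaling 1 and 2. Sf3b6 (chr12:4817544-4827659) had 81.9, 67.1, 65.9 and 75.8 RPKM from S129 and 119, 103, 97.9 and 109 RPKM from CAST (-0.56 ± 0.033, adjusted p = 0.000271). With its local median of -0.15 taken out, a difference of -0.42 was left (limma, adjusted p = 0.00278). Sf3b5 (-0.31 ± 0.034) and Sf3a1 (-0.20 ± 0.030) were the others, and in all 3 genes no S129 value reached the CAST values. The call of Sf3a1 was lost with the autosomal rescaling (-0.099, adjusted p = 0.093) and without the pairing (adjusted p = 0.0895). Sf3b1 (-0.071 ± 0.029), Sf3a2 (-0.064 ± 0.031), Sf3a3 (-0.077 ± 0.029) and Sf3b2 (0.080 ± 0.049) did not pass the threshold. Of the Snrp genes, 2 were higher from S129 and 3 from CAST of 11 tested, and with the autosomal rescaling 3 and 2. The 7 Sm proteins had 3 higher from CAST, Snrpb (-0.43 ± 0.039), Snrpd2 (-0.24 ± 0.034) and Snrpg (-0.22 ± 0.040), and none higher from S129. The Sm gene Snrpd3 narrowly missed the threshold (0.11 ± 0.035, limma, adjusted p = 0.051) and was called higher from S129 with the rescaling. Both U2 genes, Snrpa1 (0.19 ± 0.030) and Snrpb2 (0.12 ± 0.032), were higher from S129, with all S129 values above all CAST values. The call of Snrpg was lost with the rescaling, those of Snrpg, Snrpd2 and Snrpb2 without the pairing, and that of Snrpb2 also without replicate 1, 2 or 3. Snrpg lies on chromosome 6, whose median was 0.20, and the median of the 115 other genes within 10 Mb was 0.26. With this local median taken out, the difference of Snrpg was -0.48 (limma, adjusted p = 0.00104). For Hnrnpf, also on chromosome 6, the difference went from -0.22 to -0.40 by the same step (limma, adjusted p = 0.00153). Snrpd1, the highest member, had an S129 share of 50.7% of at least 115455 reads (95% exact binomial interval 50.4 to 51.0%, counting error only). Of all assigned reads, 50.81 to 51.05% per library were of S129. The difference of Snrpd1 was -0.014 ± 0.034 (limma, adjusted p = 0.749), and its sign changed with the scaling.

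The single X-linked member, Hnrnph2 (chrX:134601179-134607060), came from the S129 copy. It had 10.8, 11.3, 9.42 and 7.67 RPKM from S129, and from CAST it was listed at 0 in libraries 2 and 3 and at 0.0148 and 0.0247 RPKM in libraries 1 and 4. In all, 2341 of 2343 reads were of S129 (99.9%, 95% exact binomial interval 99.7 to 99.99%). A male cell has 1 X chromosome, and the fitted difference of 6.48 on the log2 scale, which depends on the pseudocount of 0.1, was near the chromosome median of 6.33. It is 1 of the 10 members counted as higher from S129, and serves as a check of the assignment of reads.

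With the local median of each gene taken out, the counts changed little. Of the members, 13 were then higher from S129 and 16 higher from CAST, against 28.9% and 28.9% of 13335 genes. Of the 28 calls, 26 were kept, that of Hnrnpa1 was lost and that of Srsf11 was reversed, while Hnrnpu (0.12, adjusted p = 0.0334) and Hnrnpul2 (0.23, adjusted p = 0.0128) were added, both higher from S129.

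Other genes of the splicing machinery were examined as 4 lists. Of 119 genes listed, 107 were tested, with 31 higher from S129 and 39 higher from CAST, beside 31.4% and 31.3% of all genes. Of the 31, 3 are X-linked (Zrsr2, Rbmx and Srpk3), where a male line has no second copy, and Srpk3 is also among the kinases below. Among other snRNP and spliceosome proteins, 15 and 25 of 60 tested were higher from S129 and CAST, among other splicing regulators 13 and 10 of 34, and among the kinases and importers of SR proteins 3 and 2 of 9. With the autosomal rescaling the 107 genes divided into 39 higher from S129 and 29 from CAST, and without replicate 2 19 were higher from S129. Lsm7, a protein of the Lsm ring on U6 RNA, was higher from CAST (-1.51 ± 0.053, log2, adjusted p = 6.09e-05) at a level of 249.5 RPKM, and Phf5a, which is a further SF3b subunit, was higher from S129 by 0.68 ± 0.044 (adjusted p = 0.000344). Tra2b, a relative of the SR proteins, was higher from S129 by 1.13 ± 0.030 (adjusted p = 2.69e-05), of which 0.34 was left with the local median taken out. Srpk1, which phosphorylates SR proteins, was higher from CAST (-0.36 ± 0.036, adjusted p = 0.00134). Splicing regulators known from neurons were low, with a median level of 0.234 RPKM, 4 of 11 at 1 RPKM or above and the highest, Celf5, at 1.31 RPKM. Of the 4 of these tested, Khdrbs2 (-4.27 ± 0.060, adjusted p = 4.25e-06) and Celf4 (-0.36 ± 0.073, adjusted p = 0.0129) were higher from CAST.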

How the data were processed

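PolyA RNA of untreated F123-ESCs was measured in 4 libraries. Per the labels, reads were checked with FastQC, trimmed with Trimmomatic 0.40 and aligned with STAR to mm10, and by the methods of the study ribosomal reads were removed, the genome was masked at strain SNPs and reads were assigned to alleles by SNPsplit. The authors deposited RPKM per gene and allele in each library (8 columns), along with their averages over the libraries and the log10 of these plus 1, which were not used. The column of S129 whose number is written with a minus sign was read as replicate 1. The counting program and gene annotation are not given in the sources used here, and 0 columns belonged to other samples.

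The splicing factor genes and the other gene lists were chosen with earlier results of these data known. Values in every library are given by a rule for the highest and lowest members of each family, members under 1 RPKM, the 3 most variable members, the 10 largest allele differences, and members whose call was lost or reversed when a local or chromosome median was taken out.

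Genes were matched to GENCODE M21 by identifier (23995 of 24026). Read numbers were recovered from the steps of the RPKM and were whole, within 0.02 reads in every column, for 99.5% of genes above 0. For 6 members, Snrpd1, Srsf3, Srsf7, Hnrnpul2, Sf3b2 and Snrpc, no annotated length was found and the smallest that made all columns whole was taken, so that their lengths and reads are the fewest possible. A single read on a gene of 1 kb is worth 0.0348 to 0.0598 RPKM. Confidence intervals of shares describe counting error alone, because no molecular identifiers separate PCR copies.

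Alleles were compared with limma 3.58.1 on log2(RPKM + 0.1) differences, S129 minus CAST in the same library, in an intercept-only model (two-sided), for 13341 genes whose alleles together averaged at least 1 RPKM, with Benjamini-Hochberg adjustment over all of them. A fold on this scale understates the change of low genes. Both columns of a number are reads of the same library, and over 12869 autosomal genes their deviations from the mean of the allele correlated at 0.11 to 0.20, against -0.16 to 0.15 for columns of different libraries. Local medians used all other tested genes within 10 Mb, at least 5. Near-identical copies were searched with BLAST 2.17.0. The steps were tested on simulated data. The alternatives were other pseudocounts and filters, no pairing, an autosomal rescaling, whole reads, a variance trend, removal of local or chromosome medians, exon-union lengths, each allele alone, and each library left out in turn.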

Additional observations from a re-analysis of the deposited data

Results flagged for a closer look

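In 8 of 101 quantities tested, 52 levels and 49 allele differences, 1 library stood apart from the other three by Dixon's criterion for 4 values, where chance gives about 5.05 at 1 in 20. Of these, 5 were levels in replicate 4, the shallowest library, and all were low: Srsf3 with 161 RPKM (the others 202 to 208), Hnrnpc with 109 RPKM (134 to 136), Hnrnpu with 61.9 RPKM (71.0 to 72.9), Srsf6 with 54.1 RPKM (65.2 to 67.4) and Srsf10 with 39.0 RPKM (48.8 to 50.3). The allele difference of Srsf10 also stood apart there, with -0.11 on the log2 scale against -0.01 to 0.01. In replicate 2, Srsf9 had 30.6 RPKM (32.9 to 33.1) and Sf3b4 had 0.281 RPKM (0.125 to 0.132).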

How the results depend on the processing

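Under the 14 alternatives to the comparison of the alleles, and those for levels and spreads, 274 of 317 values of named members stayed on the same side of 0 and of the threshold, 26 no longer passed it, 5 newly passed it and 12 were reversed. Of 137 counts, levels and spreads, 114 stayed within 1.5 times the value or within the spread between libraries, and 23 moved. Without the replicate block, 13 members were called in place of 28 (5 higher from S129, 8 from CAST) and 36 other splicing genes in place of 70 (13 and 23). The autosomal rescaling gave 17 members higher from S129 and 10 from CAST, and whole reads gave 16 higher from S129 and 15 from CAST. Whole reads were compared without scaling to the total of the column. This moved the differences of all genes by a median of 0.055 on the log2 scale towards S129, and the share of all genes called is not given for it. Leaving out each library in turn, 21 to 26 members were called, 6 to 9 higher from S129 (6 without replicate 3) and 14 to 17 from CAST, and 50 to 61 other splicing genes, 19 to 25 higher from S129 (19 without replicate 2) and 31 to 36 from CAST. Shares over all genes are not given with a library left out. The median level of the members of 39.5 RPKM was 38.9 to 40.7 RPKM with a library left out, 43.7 RPKM for CAST alone, 15.8 RPKM with exon-union lengths and 52.6 RPKM over members with at least 1 RPKM. The median SD between libraries of 0.16 ranged from 0.074 (without replicate 4) to 0.18.

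Reversed differences were those of Srsf11 (0.052 with the chromosome median and 0.16 with the local median taken out), of Hnrnpa2b1 (-0.14 and -0.064 by the same steps), of Sf3a3 (0.025 with the rescaling), of Snrpd1 (0.089 with the rescaling, 0.020 with the local median taken out, 0.041 with whole reads, and -0.032 to 0.0045 with a library left out) and of Srsf4 (-0.012 with the local median taken out, and -0.096 to 0.10 with a library left out). The cause was not tested. Depth limits Snrpf, Snrpc, Srsf12 and the members under 1 RPKM, which rest on few reads.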

Other observations

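On chromosome 3 the median of S129 minus CAST over all tested genes was -0.72 (log2). The local median of Srsf11 was likewise far to the side of CAST. All 8 tested genes of the other splicing lists there were higher from CAST, the side of the chromosome median. This chromosome was chosen after its values were seen. Bcas2, a component of the Prp19 complex, had a difference S129 minus CAST of -1.35 ± 0.032 on the log2 scale (SE, n = 4), and Rnpc3, a protein of the minor spliceosome, had -1.05 ± 0.036. Mbnl1 (-1.18 ± 0.22), Clk2, a kinase of SR proteins (-0.92 ± 0.036), Ptbp2 (-0.49 ± 0.049), Prpf3 (-0.80 ± 0.073), Prpf38b (-0.91 ± 0.036) and Plrg1 (-0.98 ± 0.031) were on the same side. With the local median taken out, the differences were -0.52 for Bcas2, -0.34 for Rnpc3, -0.40 for Mbnl1, -0.18 for Prpf38b, -0.16 for Plrg1, -0.076 for Clk2 and 0.045 for Prpf3, and Ptbp2, like Srsf11, was higher from S129, by 0.19 (limma, adjusted p = 0.0236).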
